A study of Rattus norvegicus with 12 samples.

Results

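The genes followed here are the muscle atrophy ubiquitin ligases, the FoxO transcription factors above them and a set of autophagy genes, measured in the left ventricle of rats. The set was given as a list of 10 symbols: Trim63, Fbxo32, Foxo1, Foxo3, Map1lc3a, Map1lc3b, Sqstm1, Bnip3, Becn1 and Gabarapl1. Every array probe whose target identifier maps to one of them was taken, which gave 12 probes for 9 genes, since no probe was matched to Foxo1. All 12 probes were tested, of 20020 probes tested on the array, and these 9 genes are 9 of the 11211 named genes tested. Map1lc3b, Sqstm1 and Gabarapl1 had 2 probes each, called the brighter and the dimmer probe, and every other gene had 1.

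Male Sprague-Dawley rats ate a diet of 60% fructose for 8 weeks, so all groups share this sugar load and none was on ordinary chow. The diet held either 0.64% NaCl (normal sodium) or less than 0.01% NaCl (low sodium), and in 2 of the 4 groups angiotensin II (AngII), the pressor peptide of the renin-angiotensin system, was infused under the skin at 200 ng/kg/min over the last 4 weeks. Each diet thus had a group with and a group without AngII, named by diet and infusion below, and each of the 4 groups had 3 one-colour arrays on total RNA of left ventricle. The labels name the arrays of a group as replicates, give no age and mention no sham infusion in the rats without AngII, so p-values measure the spread between these samples.

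A cell takes its proteins apart along a pair of routes. In the ubiquitin-proteasome route, E3 ligases such as MuRF1 (the product of Trim63) and atrogin-1 (the product of Fbxo32) tag proteins of striated muscle, and the proteasome degrades them. In autophagy, a membrane coated with proteins of the LC3 and GABARAP families closes around cargo held by receptors and fuses with the lysosome, and FoxO transcription factors, which insulin and IGF1 signalling keep out of the nucleus, can switch on genes of both routes in muscle and heart. Transcript levels measure neither protein degradation nor autophagic flux.

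Facts of the whole array bear on all that follows. Signals at the 75th percentile ran from 1399 to 1988 intensity units and the median local background from 20 to 29.5, with 0 saturated spots. Pearson's r across probes was 0.980 to 0.992 within groups and 0.977 to 0.993 between them, and genes are not independent replicates. Normal sodium replicate 1 stood apart, with 88 non-uniform spots where the other arrays had at most 3 and with an array weight of 0.245, the smallest of the 12. The tissue label was borne out by bright cardiomyocyte genes (median intensity 381006 for Myh6 and 444003 for Tnnt2). Markers of other muscle and 1 of 4 fat cell genes were read as well. Of 8 skeletal muscle genes on the array 7 passed the filter on dim probes (Ckm, which heart muscle also makes, at 203808, Tnnc2 at 11507.5, Tnni2 at 336 and Myh4 at 37.5), and Myh1 (4.26) did not. Of 6 atrial genes 5 passed (Myl4 214803, Nppa 3758, Sln 1290 and Myl7 610, but not Bmp10 at 3.36). Of the 4 fat cell genes only Fabp4 (12002) did, with Adipoq at 3.80, Cidec at 3.79 and Lep at 4.32. Values below are log2 of the processed signal over the array's 75th percentile, so 0 is the 75th percentile, and levels of different probes are not comparable with each other.

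No member gene passed the test in any comparison (limma, Benjamini-Hochberg adjusted p under 0.05). This holds for 0 of 9 genes in the effect of AngII on each diet, of low sodium with and without AngII, of each factor averaged over the other, and in their interaction, which subtracts the AngII difference on normal sodium from the one on low sodium. Across the array 0% of the 20020 probes passed in each of these 7 comparisons as well, so the members' count equals the background. At an unadjusted p under 0.05 the members counted were Becn1 for AngII on normal sodium (1 of 9 genes, against 7.26% of probes; with the slide as a block Sqstm1 as well, 2 of 9 against 8.44%), Becn1 for low sodium without AngII (1 of 9, against 7.03%), Sqstm1 for low sodium with AngII (1 of 9, against 11.1%), and Trim63 and Sqstm1 for low sodium averaged over AngII (2 of 9, against 12.5%). No member reached it for AngII on low sodium (1.71% of probes), for AngII averaged over diets (2.88%) or in the interaction (5.06%). Groups did not overlap on 2 of 12 member probes for AngII on normal sodium (13.1% of all probes), on 0 for AngII on low sodium (6.12%), on 1 for low sodium without AngII (10.9%) and on 2 for low sodium with AngII (22.2%). With 6 arrays against 6, they did not overlap on 0 member probes for AngII (0.0749%) and on 1, Trim63, for low sodium (1.34%).

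**Figure D1:**
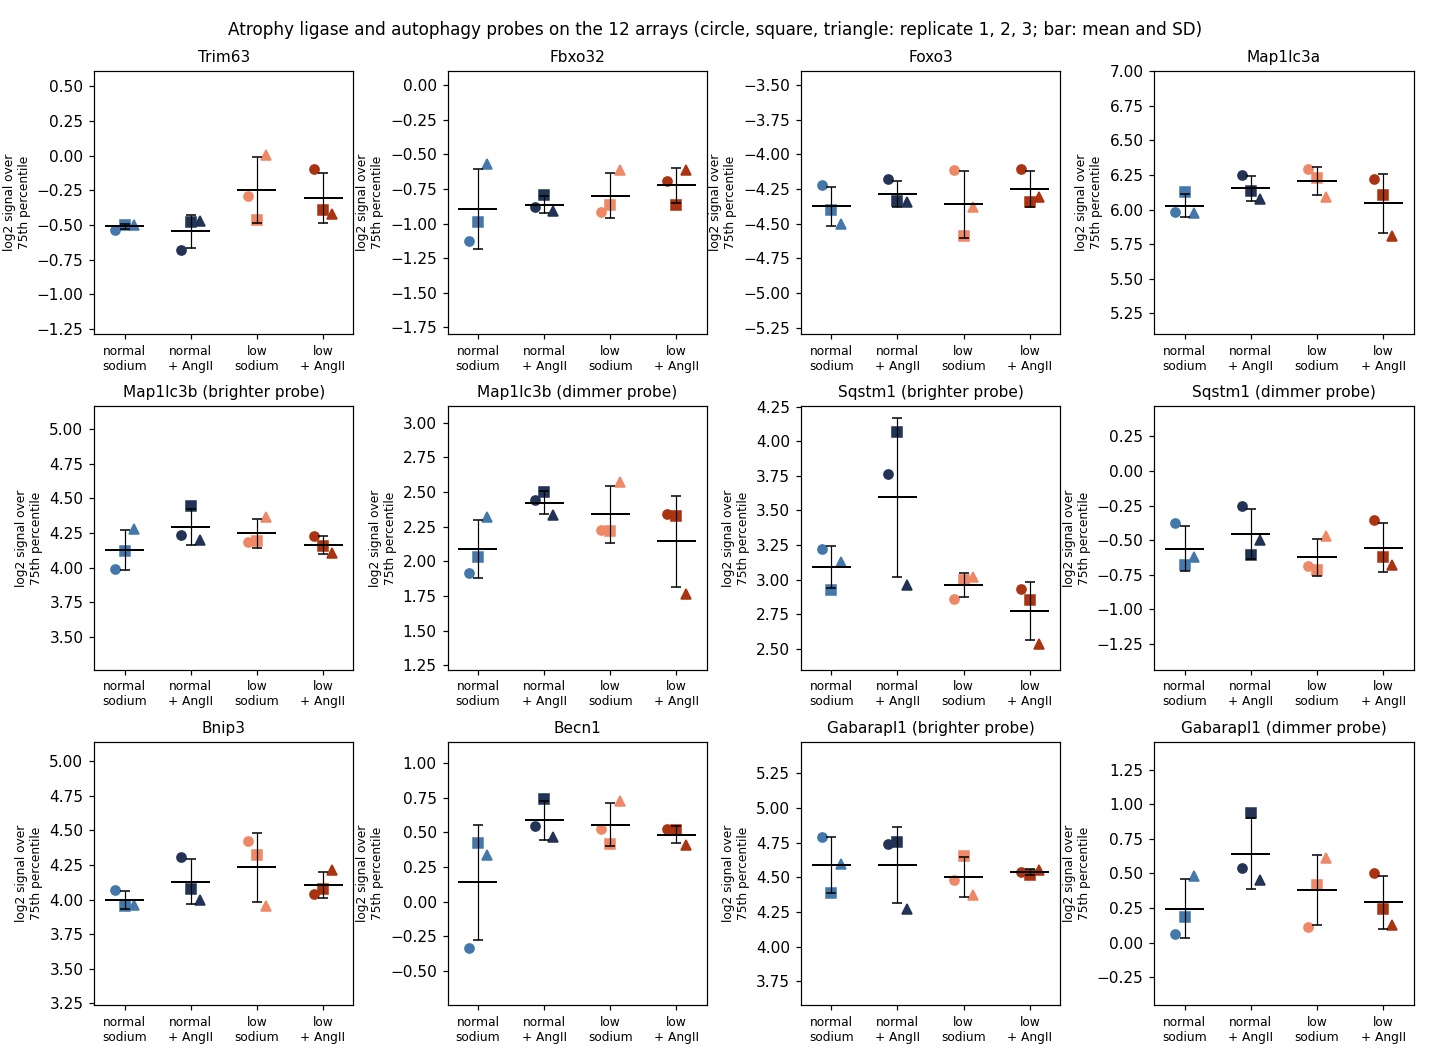
Each panel plots 1 probe on the 12 arrays as log2 signal over the array's 75th percentile; circles, squares and triangles are replicates 1, 2 and 3, the bar is the group mean and the whiskers 1 SD (3 arrays), and all panels span the same range of log2 units. The 6 low sodium arrays of Trim63 lie above the 6 normal sodium arrays, and Sqstm1 on its brighter probe is highest on replicates 1 and 2 of normal sodium with AngII.

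Trim63 encodes MuRF1, an E3 ligase that sits on the sarcomere and tags thick filament proteins. Its level on the 3 normal sodium arrays was -0.54, -0.50 and -0.50, and with AngII -0.68, -0.48 and -0.48. On low sodium it was -0.29, -0.46 and 0.01, and with AngII -0.10, -0.40 and -0.42. All 6 low sodium arrays were thus above all 6 normal sodium arrays, although the gap was small: the highest normal sodium array stood at -0.48 and the lowest low sodium array at -0.46. Such a separation upward held for 0.36% of the probes tested. Averaged over AngII, Trim63 was 0.25 ± 0.10 log2 units (limma standard error; 1.19-fold) higher on low sodium, with a 95% interval of 0.03 to 0.47 (limma, Benjamini-Hochberg adjusted p = 0.331). Within the 3 slides, each of which carried 1 array of every group, that difference was 0.42, 0.06 and 0.28.

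The diet difference of Trim63 was of like size in both arms, 0.26 ± 0.14 without AngII (adjusted p = 0.741) and 0.24 ± 0.14 with AngII (adjusted p = 0.552), and in neither arm did the diets overlap, which held upward for 5.04% and 9.92% of probes. Group means were -0.51 ± 0.02 on normal sodium, -0.55 ± 0.12 when AngII was added, -0.25 ± 0.24 on low sodium and -0.30 ± 0.18 with AngII (SD, n = 3). Within each diet the infused and uninfused arrays overlapped, with an AngII difference of -0.03 ± 0.14 on normal sodium and -0.05 ± 0.14 on low sodium. The separation of the 6 and 6 arrays was kept with median scaling and with quantile normalization, but the diets overlapped with normexp background correction (difference 0.18) and in the authors' own normalized values (difference 0.18), where the highest normal sodium array was at 10.42 and the lowest low sodium array at 10.21. Without low sodium replicate 3 the difference without AngII was 0.13, and without low sodium with AngII replicate 1 the difference with AngII was 0.14.

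Markers of other cell types differed by diet in the same arrays. For low sodium averaged over AngII, 8 of 9 fibroblast genes were below 0 (7 at an unadjusted p under 0.05), as were 7 of 7 endothelial genes (4), 6 of 7 macrophage genes (4) and 8 of 9 cardiomyocyte genes (0). In that comparison 44% of all genes tested were above 0, and 8.47% of all probes were lower at that p. The summed fibroblast signal, in units of the 75th percentile, was 60.9 to 68.7 on normal sodium and 66.2 to 75.8 when AngII was added, and 49.1 to 51.0 and 52.9 to 57.1 on low sodium. Their part in the Trim63 difference was not tested, and in bulk tissue fewer cells of a type and less RNA per cell cannot be told apart.

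The stretch before the Trim63 start is shown because Trim63 is the member whose arrays separated by diet. It is 250 bases long, from RefSeq on GRCr8, chr5:151816986-151817235, plus strand, 5′ to 3′, with motif matches in capitals.
Trim63: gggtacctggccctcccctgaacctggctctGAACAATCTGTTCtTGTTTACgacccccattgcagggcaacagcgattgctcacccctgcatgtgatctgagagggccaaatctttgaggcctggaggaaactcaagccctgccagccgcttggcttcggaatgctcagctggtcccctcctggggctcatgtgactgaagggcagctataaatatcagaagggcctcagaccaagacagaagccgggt
The capitals mark 2 matches with 1 base between them. The first, gaacaatctgttc, 219 to 207 bases before the start, fits the palindromic glucocorticoid response element, the site form bound by the glucocorticoid receptor. It is held by 14 of 33469 promoter windows (0.0418%). This motif was added to the search after the sequence had been read, so that share does not measure how unusual the match is. The second, tgtttac, 205 to 199 bases before the start, is the reverse strand of the FoxO motif GTAAACA, which 3.21% of windows of that length hold. Both strands were searched, and a match is a description of letters, not of binding.

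Fbxo32 encodes atrogin-1, the substrate-binding subunit of a muscle ubiquitin ligase. Its level was -1.13, -0.99 and -0.57 on normal sodium, -0.88, -0.80 and -0.91 when AngII was added, -0.92, -0.86 and -0.61 on low sodium, and -0.69, -0.86 and -0.62 on low sodium with AngII. All 4 groups overlapped in these values, and the lowest and highest of the 12 arrays were both of the normal sodium group. Under AngII the diets did not overlap on Fbxo32 with median scaling, with quantile normalization or with the 75th percentile taken over probes instead of spots. Shares of all probes were not computed for those scales. The mean low sodium difference was 0.12 ± 0.11 (95% interval -0.12 to 0.36, adjusted p = 0.702), so a diet difference in Fbxo32 of the size seen in Trim63 lies within its interval. The AngII difference was 0.03 ± 0.15 on normal sodium and 0.07 ± 0.15 on low sodium. Over the 12 arrays, which share slides and scaling, Trim63 and Fbxo32 correlated at r = 0.48.

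Foxo3 encodes a FoxO factor that insulin signalling restrains, and its probe was dim, at 69.7 to 114.9 intensity units, though well above background on all 12 arrays. Its level was -4.22, -4.40 and -4.50 on normal sodium, -4.18, -4.34 and -4.35 when AngII was added, -4.11, -4.59 and -4.38 on low sodium, and -4.10, -4.34 and -4.31 on low sodium with AngII. The groups overlapped in every comparison of these values, and replicate 1 was the highest array of each group. Under AngII the diets did not overlap with median scaling, with quantile normalization or in the authors' values. On the main scale 22.2% of all probes had diets apart under AngII, and shares for the other scales were not computed. The AngII difference was 0.09 ± 0.14 on normal sodium and 0.11 ± 0.14 on low sodium, and the mean low sodium difference 0.02 ± 0.10 (95% interval -0.20 to 0.24).

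Sqstm1 encodes p62, the receptor that links ubiquitin-tagged cargo to LC3 and is itself degraded with it. On its brighter probe it stood at 3.22, 2.92 and 3.13 on normal sodium and at 3.76, 4.07 and 2.96 with AngII. On low sodium it stood at 2.86, 3.00 and 3.02, and with AngII at 2.93, 2.86 and 2.54. Replicates 1 and 2 of normal sodium with AngII were the highest of the 12 arrays, replicate 3 of that group lay among the uninfused arrays, and under AngII the 3 low sodium arrays were all below the 3 normal sodium arrays, as were 12.3% of the probes tested. That low sodium difference was -0.82 ± 0.24 (95% interval -1.35 to -0.29), a 1.77-fold lower signal (limma, Benjamini-Hochberg adjusted p = 0.299). Within the slides it was -0.83, -1.21 and -0.42, lower on all 3, as for 24% of the probes.

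The AngII difference of this Sqstm1 probe was 0.51 ± 0.24 on normal sodium (adjusted p = 0.669; within slides 0.54, 1.14 and -0.17) and -0.18 ± 0.24 on low sodium. Group means were 3.09 ± 0.15 on normal sodium, 3.60 ± 0.57 when AngII was added, 2.96 ± 0.09 on low sodium and 2.77 ± 0.21 with AngII (SD, n = 3). The interaction was -0.69 ± 0.34 (95% interval -1.44 to 0.06, adjusted p = 0.857). The values turn on single arrays: without normal sodium with AngII replicate 2 the low sodium difference under AngII was -0.59 and the AngII difference on normal sodium 0.27, and without replicate 3 of that group they were -1.14 and 0.82. With median scaling the 2 groups overlapped, at a difference of -0.72.

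The dimmer Sqstm1 probe, which the files tie to another RefSeq transcript of the gene, did not show that pattern. It read -0.38, -0.68 and -0.62 on normal sodium, -0.26, -0.61 and -0.50 when AngII was added, -0.69, -0.71 and -0.47 on low sodium, and -0.35, -0.62 and -0.68 on low sodium with AngII. All groups overlapped, and its low sodium difference under AngII was -0.10 ± 0.14 (95% interval -0.41 to 0.22). That interval lies above the -0.82 of the brighter probe but overlaps the 95% interval of that probe. The probes were not tested against each other. Over the 12 arrays the probes correlated at r = 0.39. With the mean of both probes the Sqstm1 difference was -0.46.

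The 250 bases before the Sqstm1 start are given for comparison with those of Trim63, from RefSeq on GRCr8, chr10:35037751-35038000, minus strand, 5′ to 3′.
Sqstm1: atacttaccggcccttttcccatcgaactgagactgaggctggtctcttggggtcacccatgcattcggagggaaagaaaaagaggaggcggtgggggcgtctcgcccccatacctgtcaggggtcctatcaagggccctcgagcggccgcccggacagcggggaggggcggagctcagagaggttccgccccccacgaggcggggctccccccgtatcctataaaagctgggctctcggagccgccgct
There are no capitals because none of the motifs searched is in this window: the FoxO motif GTAAACA, the E-box CACGTG, the hypoxia response core ACGTG, the antioxidant response element TGACNNNGC and the palindromic glucocorticoid response element. Of the 10 genes, 6 had an entry among the promoter sequences. Of the others with an entry, Bnip3 held 1 E-box 99 to 94 bases before its start (5.59% of windows hold one), which also contains the ACGTG core (16.6% of windows), Foxo1 held 2 antioxidant response elements (10.1% of windows hold at least 1), and Map1lc3b and Gabarapl1 held none of these letters.

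Markers of other cell types also differed between the groups compared for Sqstm1. The summed signal of 4 red cell genes, in units of the 75th percentile, ran from 250 to 288 on normal sodium with AngII, above the 129 to 166 of normal sodium and the 185 to 210 of low sodium with AngII. Their mean log2 value, with each gene centred over the arrays, overlapped: 0.08 to 0.77 against -0.85 to 0.24 and -0.19 to 0.24. For low sodium under AngII, 3 of these 4 genes were below 0, all 3 at an unadjusted p under 0.05. The median of the 4 was -0.41. The summed red cell signal within normal sodium with AngII was 250, 258 and 288 on replicates 1, 2 and 3. Of 9 fibroblast genes, 8 were lower on low sodium under AngII (median -0.36), 5 of them at an unadjusted p under 0.05, and their summed signal was 66.2 to 75.8 without and 52.9 to 57.1 with sodium restriction. Of 9 cardiomyocyte genes 0 were above 0 in that comparison (median -0.11, none at an unadjusted p under 0.05), with summed ranges that overlapped. Of 7 endothelial and 7 macrophage genes all were below 0 there (medians -0.33 and -0.58). So were 6 of 6 smooth muscle genes (median -0.12, none at an unadjusted p under 0.05). Of all genes tested 42.6% were above 0 in that comparison, and 7.41% of all probes were lower at an unadjusted p under 0.05. The part of these cell types in the Sqstm1 difference was not tested.

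Bnip3 encodes a mitochondrial outer membrane protein that binds LC3 and takes part in mitophagy. It stood at 4.07, 3.95 and 3.96 on normal sodium, 4.31, 4.08 and 4.00 when AngII was added, 4.42, 4.32 and 3.95 on low sodium, and 4.04, 4.07 and 4.21 on low sodium with AngII. Replicates 1 and 2 of low sodium were the highest arrays and replicate 3 of the same group the lowest, so every pair of groups overlapped. The low sodium difference was 0.24 ± 0.14 without AngII (adjusted p = 0.756) and -0.02 ± 0.14 with AngII.

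Becn1 encodes Beclin 1, a subunit of the lipid kinase complex that starts the autophagosome. Its level was -0.33, 0.43 and 0.33 on normal sodium, 0.55, 0.74 and 0.47 when AngII was added, 0.52, 0.42 and 0.73 on low sodium, and 0.53, 0.51 and 0.41 on low sodium with AngII. Normal sodium replicate 1, the array with the non-uniform spots, was far below the other 11, and the normal sodium and normal sodium with AngII arrays did not overlap, which held upward for 7.47% of probes. Those groups overlapped with median scaling. Without AngII the diets did not overlap with median scaling, with quantile normalization or with the 75th percentile taken over probes. Under AngII they did not overlap with normexp background correction or in the authors' values. On the main scale the diets were apart for 10.9% of all probes without AngII and 22.2% with it. For the other scales such shares were not computed. The AngII difference on normal sodium was 0.45 ± 0.19 (adjusted p = 0.669; within slides 0.88, 0.32 and 0.14), and the low sodium difference without AngII 0.41 ± 0.19 (adjusted p = 0.707; within slides 0.86, -0.01 and 0.39). Without normal sodium replicate 1 they were 0.21 and 0.18. Becn1 on low sodium with AngII was -0.07 ± 0.19 from low sodium alone, and the interaction was -0.52 ± 0.26 (adjusted p = 0.857), or -0.28 without that array. For AngII on normal sodium 6 of 6 smooth muscle markers were above 0 as well (median 0.62, 3 at an unadjusted p under 0.05), with summed signals of 16.8 to 19.6 on normal sodium and 19.8 to 20.2 when AngII was added. So were 4 of 4 red cell genes (median 0.83, 3 at an unadjusted p under 0.05) and 6 of 9 fibroblast genes (median 0.21, 3). Of all genes tested 52.7% were above 0 there, and 4.24% of all probes were higher at that p. For low sodium without AngII 6 of 6 smooth muscle genes (median 0.59) and 4 of 4 red cell genes (median 0.40) were above 0, and 8 of 9 fibroblast genes (median -0.28), 7 of 7 endothelial genes (median -0.30) and 6 of 7 macrophage genes (median -0.42) below 0. Of all genes tested 46.9% were above 0 for low sodium without AngII. The part of these cell types in the Becn1 differences was not tested.

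Map1lc3a and Map1lc3b encode LC3A and LC3B, the ubiquitin-like proteins that are joined to lipid on the growing autophagosome. Map1lc3a read 5.98, 6.13 and 5.98 on normal sodium, 6.25, 6.13 and 6.07 when AngII was added, 6.29, 6.23 and 6.09 on low sodium, and 6.22, 6.10 and 5.81 on low sodium with AngII. The groups overlapped throughout in these values, but with quantile normalization the diets without AngII did not overlap. The share of all probes was not computed for that scale, and was 10.9% on the main scale. The AngII difference was 0.12 ± 0.13 on normal sodium and -0.16 ± 0.13 on low sodium, and the interaction -0.29 ± 0.18 (95% interval -0.68 to 0.11, adjusted p = 0.857). On normal sodium the AngII difference was -0.09 with normexp background correction and -0.03 in the authors' values, and it kept its sign in the other alternatives run.

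The brighter Map1lc3b probe read 3.99, 4.12 and 4.28 on normal sodium, 4.24, 4.44 and 4.20 when AngII was added, 4.18, 4.19 and 4.37 on low sodium, and 4.23, 4.16 and 4.11 on low sodium with AngII. All groups overlapped on it in these values. With normexp background correction, with quantile normalization and in the authors' values, the diets under AngII did not overlap on either Map1lc3b probe. Shares of all probes were not computed for those scales, and 22.2% had diets apart on the main scale. The dimmer probe read 1.91, 2.03 and 2.32 on normal sodium, 2.44, 2.50 and 2.33 when AngII was added, 2.22, 2.22 and 2.57 on low sodium, and 2.34, 2.32 and 1.76 on low sodium with AngII. Here the infused normal sodium arrays were all above the uninfused ones, 2.32 against 2.33 at the closest pair, with a difference of 0.34 ± 0.18 (adjusted p = 0.673) against 0.16 ± 0.12 on the brighter probe. Both probes had negative interactions, -0.53 ± 0.25 and -0.25 ± 0.16, neither past the threshold (adjusted p = 0.857 and 0.859). The probes followed each other over the 12 arrays at r = 0.84.

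Gabarapl1 encodes a GABARAP family protein that acts late in autophagosome formation. Its brighter probe read 4.79, 4.38 and 4.60 on normal sodium, 4.74, 4.76 and 4.27 when AngII was added, 4.48, 4.65 and 4.37 on low sodium, and 4.54, 4.52 and 4.56 on low sodium with AngII. All groups overlapped, with an AngII difference of 0.00 ± 0.16 on normal sodium and 0.03 ± 0.16 on low sodium. The dimmer probe read 0.07, 0.19 and 0.48, then 0.54, 0.94 and 0.45 with AngII, and 0.11, 0.41 and 0.61 on low sodium, then 0.50, 0.24 and 0.13 with AngII. It gave an AngII difference of 0.40 ± 0.18 on normal sodium (adjusted p = 0.669) and -0.09 ± 0.18 on low sodium, and its groups overlapped too. The 2 probes correlated at r = 0.15 over the 12 arrays, so values for this gene depend on the probe.

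**Figure D2:**
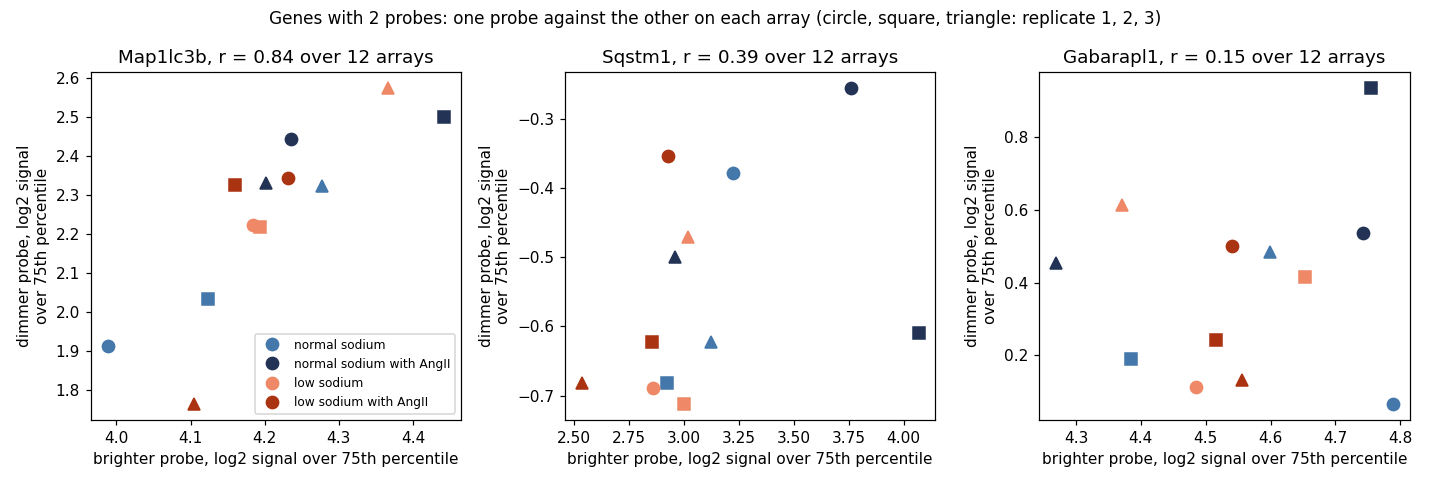
Each panel plots the dimmer probe against the brighter probe of 1 gene, both as log2 signal over the 75th percentile, with 1 point per array, colour for the group and shape for the replicate. The points of Map1lc3b follow a line (r = 0.84), while those of Sqstm1 (r = 0.39) and Gabarapl1 (r = 0.15) do not, and the high Sqstm1 reading of normal sodium with AngII replicate 2 is absent from the dimmer probe.

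Set side by side, the members' differences ran from -0.03 to 0.51 for AngII on normal sodium (7 of 9 genes above 0, median 0.12) and from -0.18 to 0.11 for AngII on low sodium (3 of 9 above 0, median -0.07). They ran from -0.13 to 0.41 for low sodium without AngII (7 of 9 above 0, median 0.12) and from -0.82 to 0.24 for low sodium with AngII (3 of 9 above 0, median -0.05). Over all 11211 genes tested, 52.7%, 45.7%, 46.9% and 42.6% were above 0 in these comparisons, with medians of 0.01, -0.01, -0.02 and -0.05. Each group enters 2 of these comparisons, the normal sodium group both of those with a median of 0.12, so like values are not separate evidence. In the interaction 3 of 9 genes were above 0 (median -0.25, and -0.20, -0.22 and -0.19 within the slides). Over all genes 45.4% were above 0, with a median of -0.03. Sqstm1, Becn1, Map1lc3a, Bnip3, Map1lc3b and Trim63 were below 0. No interaction passed the test, and Trim63, Fbxo32, Foxo3 and Gabarapl1 were within 0.05 of 0, with a sign that turned under alternatives.

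**Figure D3:**
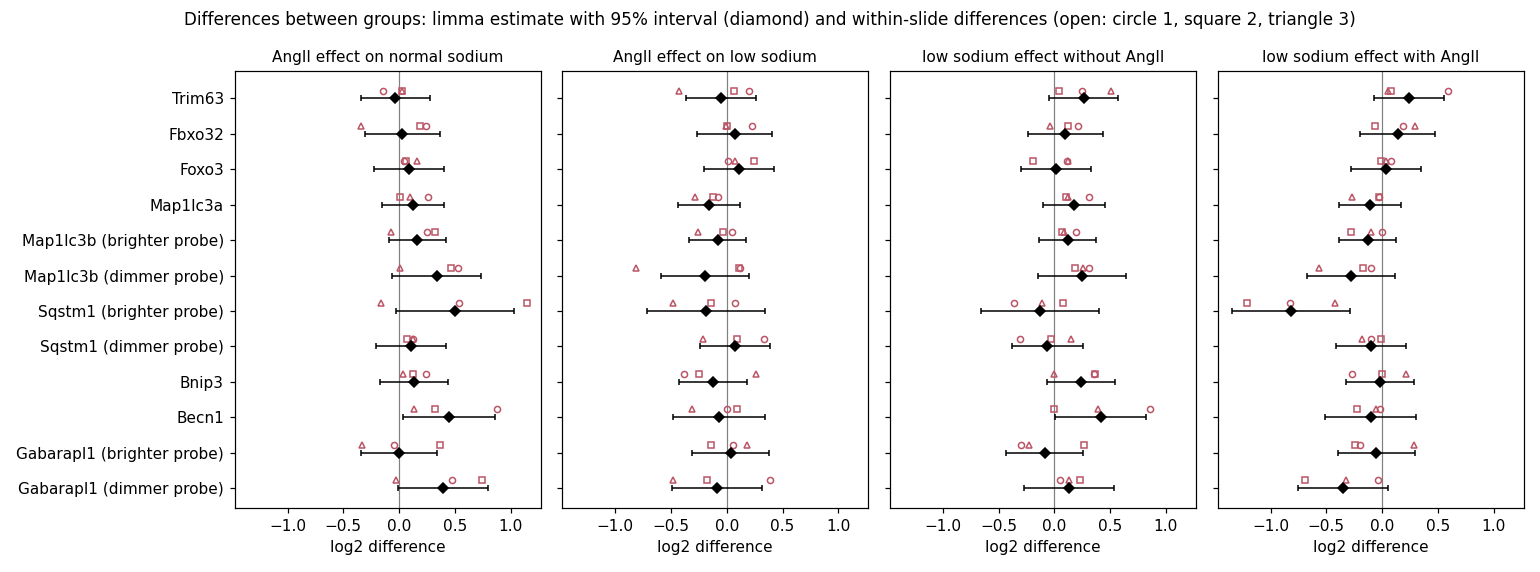
Each panel plots, for 1 comparison, the log2 difference of the 12 probes as limma estimates with 95% intervals (diamonds), and the differences within slides 1, 2 and 3 (open circles, squares and triangles). Most intervals include 0; the exceptions are Becn1 in the comparisons with the normal sodium group (0.03 to 0.86 and 0.00 to 0.83) and the brighter Sqstm1 probe for low sodium with AngII (-1.35 to -0.29).

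Members did not share 1 pattern over the arrays. Of the 36 pairs of genes, 23 had a positive r over the 12 arrays, with a median of 0.11, and after removing group means 24 were positive. The most alike pair was Becn1 and Map1lc3b (r = 0.79). The genes whose pattern over the 12 arrays was most like Trim63 were St3gal3 (r = 0.92), Kank2 (0.90), Pick1 (0.88), Whrn (0.87) and Ache (0.87). Those most like Fbxo32 were Mup5 (0.86), Cep57l1 (0.86), Rasa2 (0.85), Cert1 (0.84) and Obp3 (0.84). These are the highest of the 11211 genes after symbols beginning with LOC, RGD, RT1 and the like were passed over. They share the arrays' slides and scaling.

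The wider pathways were described through 6 lists, which hold 175 entries, 159 with a probe and 158 tested. No gene of any list passed the test in any of the 7 comparisons, and at an unadjusted p under 0.05 the counts ran from 1 of 158 for AngII on low sodium to 17 of 158 for low sodium averaged over AngII, 15 higher and 2 lower. Over all probes the shares were 1.71% and 12.5%, the latter made of 4.06% higher and 8.47% lower, so neither total was above its background.

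Among 27 genes of FoxO, insulin, IGF1 and growth signalling, 16 were above 0 for low sodium averaged over AngII (median 0.07). Of all genes 44% were above 0 (median -0.03). At an unadjusted p under 0.05, 6 of the 27 were higher. Higher at that p were 4.06% of all probes. Klf15, a glucocorticoid-induced factor that acts on muscle amino acid metabolism, was higher by 0.58 ± 0.13 (adjusted p = 0.154), with all 6 low sodium arrays above all 6 normal sodium arrays. Ddit4, an inhibitor of mTORC1, was higher by 0.70 ± 0.19 (adjusted p = 0.185), and Irs2, an insulin receptor substrate, by 0.97 ± 0.31 under AngII (adjusted p = 0.319). For AngII on normal sodium Sgk1, a kinase induced by corticosteroids, differed by 0.61 ± 0.26 (adjusted p = 0.669).

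Among 27 other muscle ubiquitin ligases and deubiquitinases, 19 were above 0 for low sodium averaged over AngII (median 0.06), against 44% of all genes. At an unadjusted p under 0.05, 2 of them were higher. Higher at that p were 4.06% of all probes. The deubiquitinase gene Usp28 was 0.43 ± 0.07 higher (adjusted p = 0.125), again with the 6 and 6 arrays apart, and Ube2b, a ubiquitin-conjugating enzyme gene, was 0.36 ± 0.13 higher (adjusted p = 0.277). Trim32, a ligase of muscle thin filament proteins, differed by -0.41 ± 0.14 for AngII on normal sodium (adjusted p = 0.669) and by 0.46 ± 0.14 for low sodium under AngII (adjusted p = 0.305). Among the genes of the 6 lists, Klf15, Usp28 and the proteasome gene Psma4 (0.15 ± 0.07) had their 6 and 6 arrays apart by diet, all upward, which is 3 of 158 genes against 0.36% of all probes upward and 1.34% in either direction.

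Of 33 proteasome subunits, 21 were above 0 for low sodium averaged over AngII, with a median of 0.02. Over all genes 44% were, with a median of -0.03. The subunits with the smallest p under AngII were those of the immunoproteasome, a form made in immune cells and under interferon: Psmb8 differed by -0.66 ± 0.20 (adjusted p = 0.302) and Psmb9 by -0.37 ± 0.14 (adjusted p = 0.376) for low sodium. Beside them, 7 of 7 macrophage markers were below 0 in that comparison (median -0.58, 4 at an unadjusted p under 0.05, against 7.41% of all probes lower at it), with summed signals of 9.23 to 10.1 on normal sodium with AngII and 6.94 to 10.2 on low sodium with AngII. Their part in these values was not tested.

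Of 27 genes of the autophagy core machinery, 15 were above 0 for low sodium averaged over AngII (median 0.05), against 44% of all genes. At an unadjusted p under 0.05, 5 of them were higher. Over all probes 4.06% were higher at that p and 8.47% lower. Rb1cc1, the scaffold of the ULK1 kinase complex, was 0.49 ± 0.11 higher on low sodium under AngII (adjusted p = 0.280), and Atg14, a partner of Beclin 1, 0.28 ± 0.09 (adjusted p = 0.340). Uvrag, another Beclin 1 partner, had an AngII difference of 0.36 ± 0.15 on normal sodium and -0.23 ± 0.15 on low sodium, with an interaction of -0.59 ± 0.21 (adjusted p = 0.857).

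Of 18 autophagy receptors and mitophagy genes, 14 were above 0 for AngII on normal sodium (median 0.11) and 6 for AngII on low sodium (median -0.10). In the interaction 3 of 18 were above 0, with a median of -0.24. Over all genes tested 45.4% were above 0 in the interaction (median -0.03). For AngII on normal and on low sodium 52.7% and 45.7% of all genes were. Of 26 lysosome and TFEB genes, 16 were above 0 for AngII on normal sodium (median 0.03) and 8 for AngII on low sodium (median -0.04). Mitf, of the TFEB family, differed by -0.52 ± 0.19 for AngII on normal sodium (adjusted p = 0.669) and by 0.44 ± 0.19 for low sodium under AngII (adjusted p = 0.433).

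**Figure D4:**
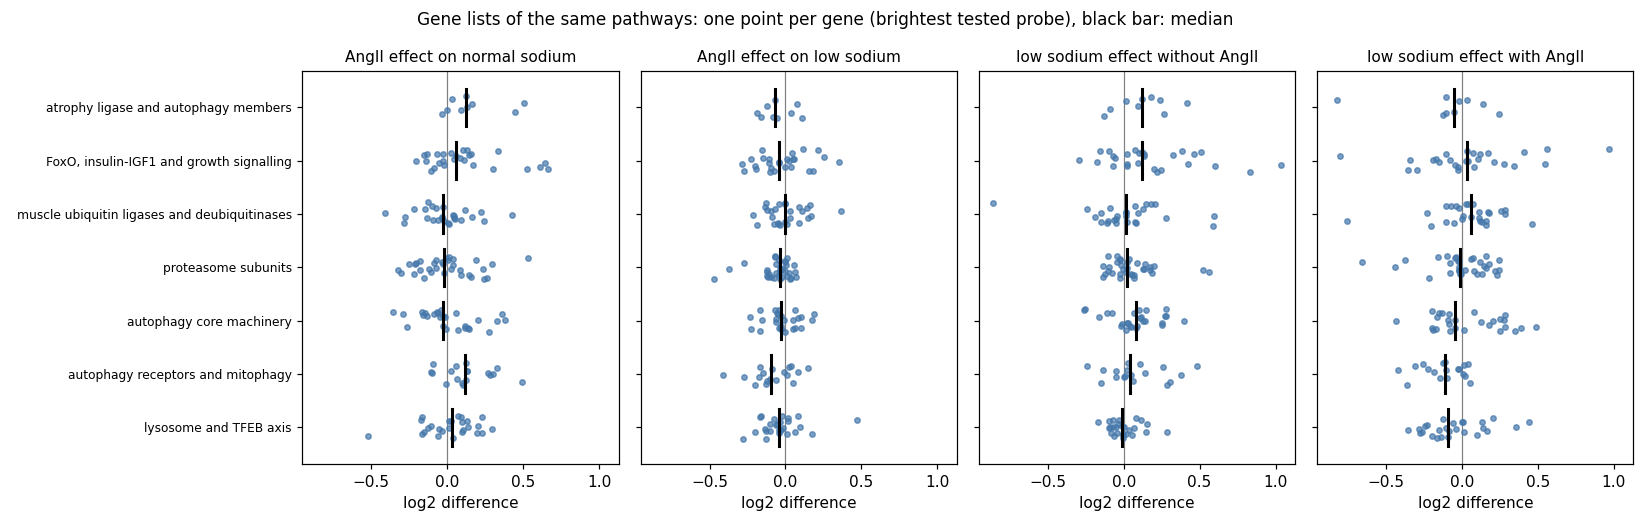
Each panel plots, for 1 comparison, the log2 difference of every tested gene of the member set and the 6 pathway lists, 1 point per gene valued by its brightest tested probe, with the list's median as a black bar. Medians lie within 0.13 of 0 in all lists and comparisons shown.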

How the data were processed

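Per the file headers, the deposited scanner values are Agilent signal intensity values from Feature Extraction 10.7.3.1, background-subtracted and not scaled between arrays. Version 11.0.1.1, R 3.3.04 and limma are named in the submitters' processing notes. The deposited matrix of the authors holds log2 values normalized by a method not stated in the sources used here, and was used as an alternative.

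Control and outlier-flagged spots were left out, spots of a probe averaged, and log2 signal reduced by the array's 75th percentile. A probe was tested when at least 0.5 of its spots were well above background on all 3 arrays of a group (20020 of 30367 probes). Names came from RefSeq (GRCr8): 18758 probes had 1 symbol and 11609 none. The brightest tested probe stood for its gene.

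Limma 3.58.1 in R 4.3.3 fitted 1 mean per group over 12 arrays, with Benjamini-Hochberg adjustment over all tested probes at 0.05; ± is the standard error unless marked SD. The code was tested on simulated data. Each of 3 slides held 1 array of every group under 1 replicate number, always at the same position, so position and group cannot be told apart. After removing group means, same-numbered arrays correlated at over 0.1 in 17 of 18 pairs, so slide was also fitted as a block.

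Members, lists and motifs were chosen with earlier results of these data known. Named list genes were those past the threshold, otherwise the 2 with the smallest p per list and comparison; not all are printed, and 1 single-gene result is not reported here. Probe coordinates were not used here. Alternatives covered background correction, scaling, filters, probe choice, weights, the block and leaving out arrays. Precision is limited by 3 arrays per group.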

Additional observations from a re-analysis of the deposited data

Results flagged for a closer look

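Some members had differences of opposite sign in the 2 arms of the same contrast on all 3 slides. The low sodium difference of the dimmer Gabarapl1 probe was 0.13 without AngII and -0.35 with AngII. That of Map1lc3a was 0.18 and -0.11, that of the brighter Map1lc3b probe 0.12 and -0.13, and that of the dimmer Map1lc3b probe 0.25 and -0.28. The AngII difference of Map1lc3a was 0.12 on normal sodium and -0.16 on low sodium. With normexp background correction and in the authors' values, its low sodium difference without AngII and its AngII difference on normal sodium turned negative. Its low sodium difference with AngII turned positive without low sodium with AngII replicate 3. The share of all probes with such opposed signs was not computed. The differences between arms were tested as interactions in limma, and none passed (Benjamini-Hochberg adjusted p = 0.857 for Gabarapl1, Map1lc3a and the dimmer Map1lc3b probe and 0.859 for the brighter one). The 2 arms of a contrast use different arrays, but both contrasts of Map1lc3a use the same 12.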

How the results depend on the processing

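The count of member genes past the threshold stayed at 0 in all 7 comparisons under every alternative that could be run, 179 of 179 values, the slide block included. Fitting the replicate block left the member medians as they were, at -0.25 in the interaction, and called 0 probes. Member medians moved by more than the spread between slides as follows. Ranges for leaving out arrays span all such fits, some of them within that spread. In the interaction the median was -0.11 with normexp, -0.19 with median scaling, -0.29 with quantile normalization, -0.14 in the authors' values, -0.17 with array weights and -0.20 with the percentile taken over probes (an alternative chosen after seeing the data), and -0.29 to -0.16 leaving out arrays. For low sodium with AngII it was 0.051 with median scaling, -0.10 averaging each gene's probes, and -0.15 to 0.025 leaving out arrays. For low sodium without AngII leaving out arrays gave 0.060 to 0.19, with the lower end within the spread between slides. For low sodium averaged over AngII it was 0.11 with median scaling and -0.0093 to 0.089 leaving out arrays. In the AngII comparisons the moves on leaving out arrays were within that spread. The medians were then 0.04 to 0.18 for AngII on normal sodium, -0.11 to 0.01 on low sodium and 0.00 to 0.09 on average.

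Of the single-gene values, 1459 kept their sign and 152 turned sign, none of them called. Median scaling moved the median of all probes for low sodium with AngII from -0.05 to 0.05. Over all probes, against 0, array weights called 842 for low sodium with AngII, 413 for its average and 3 for AngII on low sodium. In that fit low sodium with AngII replicate 2 had the largest weight, 5.91, against 0.65 and 0.51 for replicates 1 and 3 of its group. Leaving out low sodium replicate 1 called 9 for AngII on normal sodium, leaving out normal sodium replicate 2 called 20 for the low sodium average, and each other setting at most 6. The cause was not tested.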
